A study of Mus musculus with 2 samples.

Results

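The genes described here encode secreted proteins of the acute phase response and of the WAP domain family: Saa3, Wfdc17, Wfdc21, Slpi, Lrg1 and Ptx3. They are 6 of the 32285 genes in the deposited count tables, and they were listed by symbol because their levels differed between the 2 libraries of the study, so the differences over all cells given here describe how the genes were chosen and support nothing. Myeloid-derived suppressor cells (MDSC), immature myeloid cells that restrain T cells, were grown for 4 days from the marrow of C57BL/6 females, 10 weeks old, in GM-CSF and IL-6 at 50 ng/mL each. The DAB library held cells cultured with 1.5 μM of the BRAF inhibitor dabrafenib, and the DMSO library held cells given the same volume of the solvent dimethyl sulfoxide. Both libraries shared strain, sex, age and cytokines. Each condition was 1 library, the number of mice behind it is not given, and so no difference could be tested against a spread between animals or cultures. All intervals below are 95% intervals that cover counting error only.

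After filtering, 9032 DMSO cells with 91632143 unique molecular identifiers (UMIs, 1 for each captured RNA molecule) and 10476 DAB cells with 139532869 UMIs were kept, with medians of 7468.5 and 9327 UMIs per cell. The libraries shared 152 cell barcodes. Cells were clustered without the 6 genes, and 14 of 22 clusters took the name of 1 of 10 cell classes from marker genes, written with the suffix -like. The 8 unnamed clusters (G, I, J, K, L, N, O and T) held 29.8% of DMSO cells and 29.5% of DAB cells. The labels call the cells MDSC, and the named classes included B cell-like cells (167 DMSO and 216 DAB), activated dendritic cell-like cells (227 and 133) and basophil or mast cell-like cells (56 and 90) beside granulocytes, monocytes and macrophage-like cells.

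Acute phase proteins are secreted in bulk when inflammation begins, classically by the liver in response to IL-6 and IL-1, and myeloid cells make several of them locally. SAA3 is the serum amyloid A protein that mouse macrophages and adipocytes make, PTX3 is a long pentraxin that opsonizes microbes, and LRG1 is a leucine-rich glycoprotein of neutrophil granules that modulates TGF-β signalling. WAP domains are small cysteine-rich folds held together by disulfide bonds. SLPI, the secretory leukocyte protease inhibitor, uses them to block neutrophil elastase and cathepsin G, whereas WFDC17, known from activated macrophages and microglia, and WFDC21 are less well understood members of the family.

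Saa3 lies on chromosome 7 (46711998 to 46715700, minus strand, mm10), Slpi on chromosome 2 (164354070 to 164389095, minus strand), Lrg1 on chromosome 17 (56119678 to 56122001, minus strand) and Ptx3 on chromosome 3 (66219910 to 66225805, plus strand). Wfdc17 (83703991 to 83706268) and Wfdc21 (83746940 to 83752642) lie on the plus strand of chromosome 11, 40.67 kb apart. RefSeq promoter sequences (GRCm38.p6) were matched for 5 of the 6 genes, all but Wfdc21. In the 250 bases before the start, motifs of the factors that act in the acute phase response or downstream of GCN2 were searched on both strands: C/EBP as TTGCNNAA (TTNNGCAA on the other strand), STAT as TTCNNNGAA, NF-kB as GGANTTNCC and ATF4 as TGATGNAA. The C/EBP letters matched in Saa3 (99 bases before the start), Slpi (241 bases) and Ptx3 (57 bases), and they match in 9.56% of all 32851 promoters of that length. The letters of STAT (7.02% of promoters), NF-kB (3.15%) and ATF4 (3.45%) had no match in these 5 windows. The 3 promoters with a C/EBP match are shown because they join the gene that was higher in DAB with 2 that were lower. Capitals mark the match, each sequence reads 5′ to 3′ on the strand of its gene, and all lie before the first exon of the RefSeq transcript. The Saa3 stretch is chr7:46715701-46715926 and stops 25 bases short of the start, where another annotated exon begins. The Slpi stretch is chr2:164356508-164356757 and the Ptx3 stretch is chr3:66219637-66219886. The Slpi stretch lies inside the longer gene span given above, before the start of the RefSeq transcript.
Saa3: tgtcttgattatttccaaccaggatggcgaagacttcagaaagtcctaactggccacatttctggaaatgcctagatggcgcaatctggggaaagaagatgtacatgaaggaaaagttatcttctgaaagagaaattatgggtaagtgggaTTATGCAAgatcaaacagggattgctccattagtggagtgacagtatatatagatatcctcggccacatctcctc
Slpi: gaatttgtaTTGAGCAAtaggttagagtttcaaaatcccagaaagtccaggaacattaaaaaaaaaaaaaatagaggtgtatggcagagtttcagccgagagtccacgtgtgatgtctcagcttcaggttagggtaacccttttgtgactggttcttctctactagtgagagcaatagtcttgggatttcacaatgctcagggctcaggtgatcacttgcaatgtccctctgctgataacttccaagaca
Ptx3: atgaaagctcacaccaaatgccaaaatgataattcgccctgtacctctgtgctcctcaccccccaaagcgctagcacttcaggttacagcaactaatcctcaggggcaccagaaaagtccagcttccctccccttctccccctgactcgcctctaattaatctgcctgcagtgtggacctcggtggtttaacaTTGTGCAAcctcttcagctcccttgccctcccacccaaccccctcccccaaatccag

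Over all kept cells, 5 genes were lower in the DAB library and Slpi was higher. Levels are in CPM, the usual count-per-million scale of UMIs over the total of the library or class, and a log2 ratio is that of DAB over DMSO, called lower or higher when it was at least 0.5 in size and its interval left out 0. Saa3 stood at 39.1 CPM in DMSO (3584 UMIs) and 5.81 CPM in DAB (811 UMIs), a log2 ratio of -2.75 (interval -2.86 to -2.64). Wfdc17 went from 202 to 39.1 CPM (-2.37, -2.41 to -2.33). Saa3 and Wfdc17 thus had 6.73-fold and 5.17-fold higher levels without the drug. Lrg1 was at 124 and 44.2 CPM (-1.49, -1.53 to -1.44), and Ptx3 at 77.0 and 28.3 CPM (-1.44). Wfdc21 changed least, from 1209 to 844 CPM (-0.52, -0.53 to -0.51), just past the size used for a call. Slpi was 2.53-fold higher in DAB, at 677 CPM in DMSO and 1712 CPM in DAB (1.34, 1.33 to 1.35). Of the 5908 genes that reached 20 CPM in either library, 11.2% were lower and 11.6% higher in DAB by that size, and the 5 lower genes and 1 higher gene were chosen on the same contrast. In that ranking 9 genes had a lower ratio than Saa3, 13 than Wfdc17, 47 than Lrg1, 55 than Ptx3 and 629 than Wfdc21, while 76 had a higher ratio than Slpi.

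**Figure D1:**
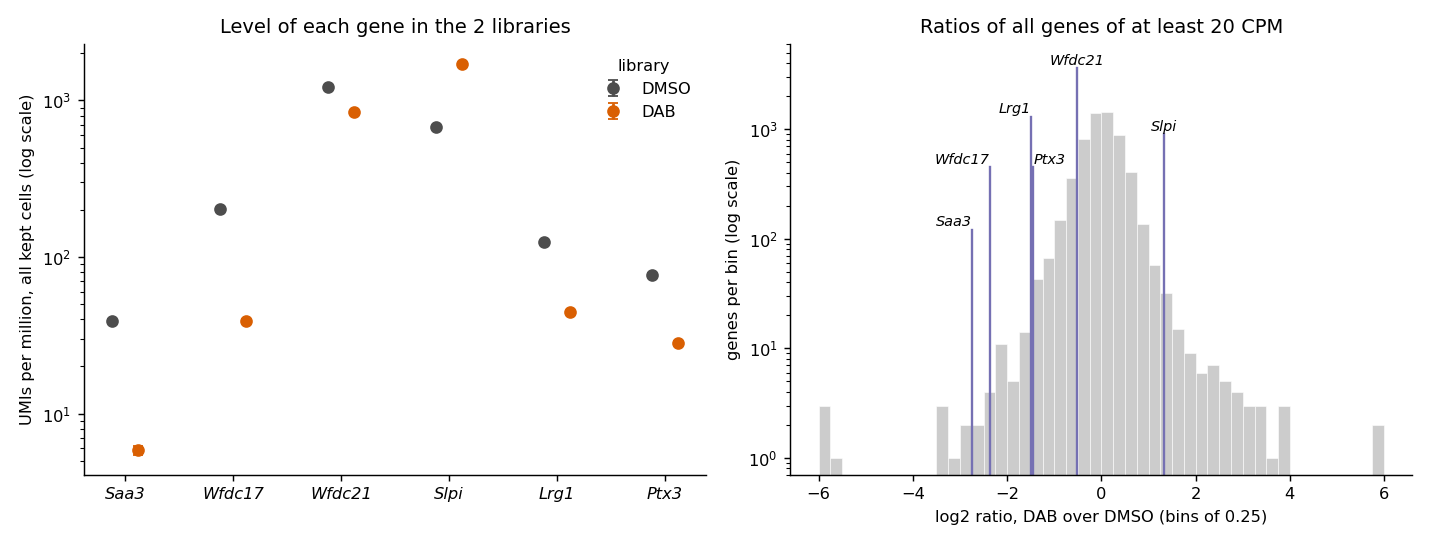
Left, level of each gene in CPM (log scale) over all kept cells of the DMSO and DAB libraries, with bars for the 95% counting interval that are mostly smaller than the points. Right, number of genes (log scale) by log2 ratio of DAB over DMSO for the 5908 genes with at least 20 CPM, where lines mark the 6 genes, from Saa3 at -2.75 to Slpi at 1.34.

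The UMIs of Saa3, Wfdc17 and Ptx3 sat in few cells. The 1% of cells richest in Saa3 held 56.0% of its UMIs in DMSO and 69.9% in DAB, and the matching values were 43.8% and 68.8% for Wfdc17 and 42.2% and 61.5% for Ptx3. Slpi (19.8% and 18.7%), Lrg1 (14.8% and 23.0%) and Wfdc21 (7.37% and 9.09%) were spread more widely. Without the richest 1% of each library the ratios were -3.29 for Saa3, -3.23 for Wfdc17 and -2.03 for Ptx3, each further from 0 than over all cells.

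The share of cells with a UMI moved the same way as the level for every gene. Because DAB cells held more UMIs each, every cell was thinned to 1500 UMIs, and the shallower cells (436 in DMSO, 292 in DAB) were set aside. Saa3 was then found in 2.37% of DMSO cells and 0.403% of DAB cells, Wfdc17 in 8.90% and 2.66%, and Ptx3 in 3.99% and 1.39%. Lrg1 was found in 17.6% and 7.02% of cells and Wfdc21 in 64.6% and 51.9%. Slpi was found in 45.2% of DMSO cells and 63.0% of DAB cells, and a thinned cell with Slpi held a mean of 2.43 UMIs in DMSO and 4.03 in DAB. Unthinned shares were higher, such as 8.61% and 3.10% for Saa3 and 72.0% and 84.2% for Slpi, with the same order of the libraries for all 6 genes. As a measure of RNA that floats free between droplets, the B cell-like cells (150 DMSO and 197 DAB after thinning, unthinned medians of 3712 and 4641 UMIs) gave 0% and 0% for Saa3 and for Lrg1, 0% and 2.03% for Wfdc17, 6.00% and 2.54% for Wfdc21, 8.67% and 7.11% for Slpi and 1.33% and 0% for Ptx3. A share of 0 of 150 and 0 of 197 cells allows up to 2.43% and 1.86% by the exact binomial interval. These B cell-like cells are thus too few to set the Saa3 shares of either library over all cells apart from free RNA. The same holds for the DAB shares of Wfdc17 and Ptx3, for which the intervals of the background reach 5.12% and 1.86%. Before thinning, single cells held up to 168 Saa3 UMIs in DMSO and 83 in DAB. In DAB, single cells held up to 175 Wfdc17 UMIs and 125 Ptx3 UMIs. For Slpi and Wfdc17 the B cell-like cells are a poor measure of free RNA. Of 1472 Slpi UMIs in these cells in DMSO, 1387 sat in 5 cells with at least 20 Jchain UMIs. The 11 DAB cells with Wfdc17 differed in myeloid markers from the other B cell-like cells, as given in the closing part.

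**Figure D2:**
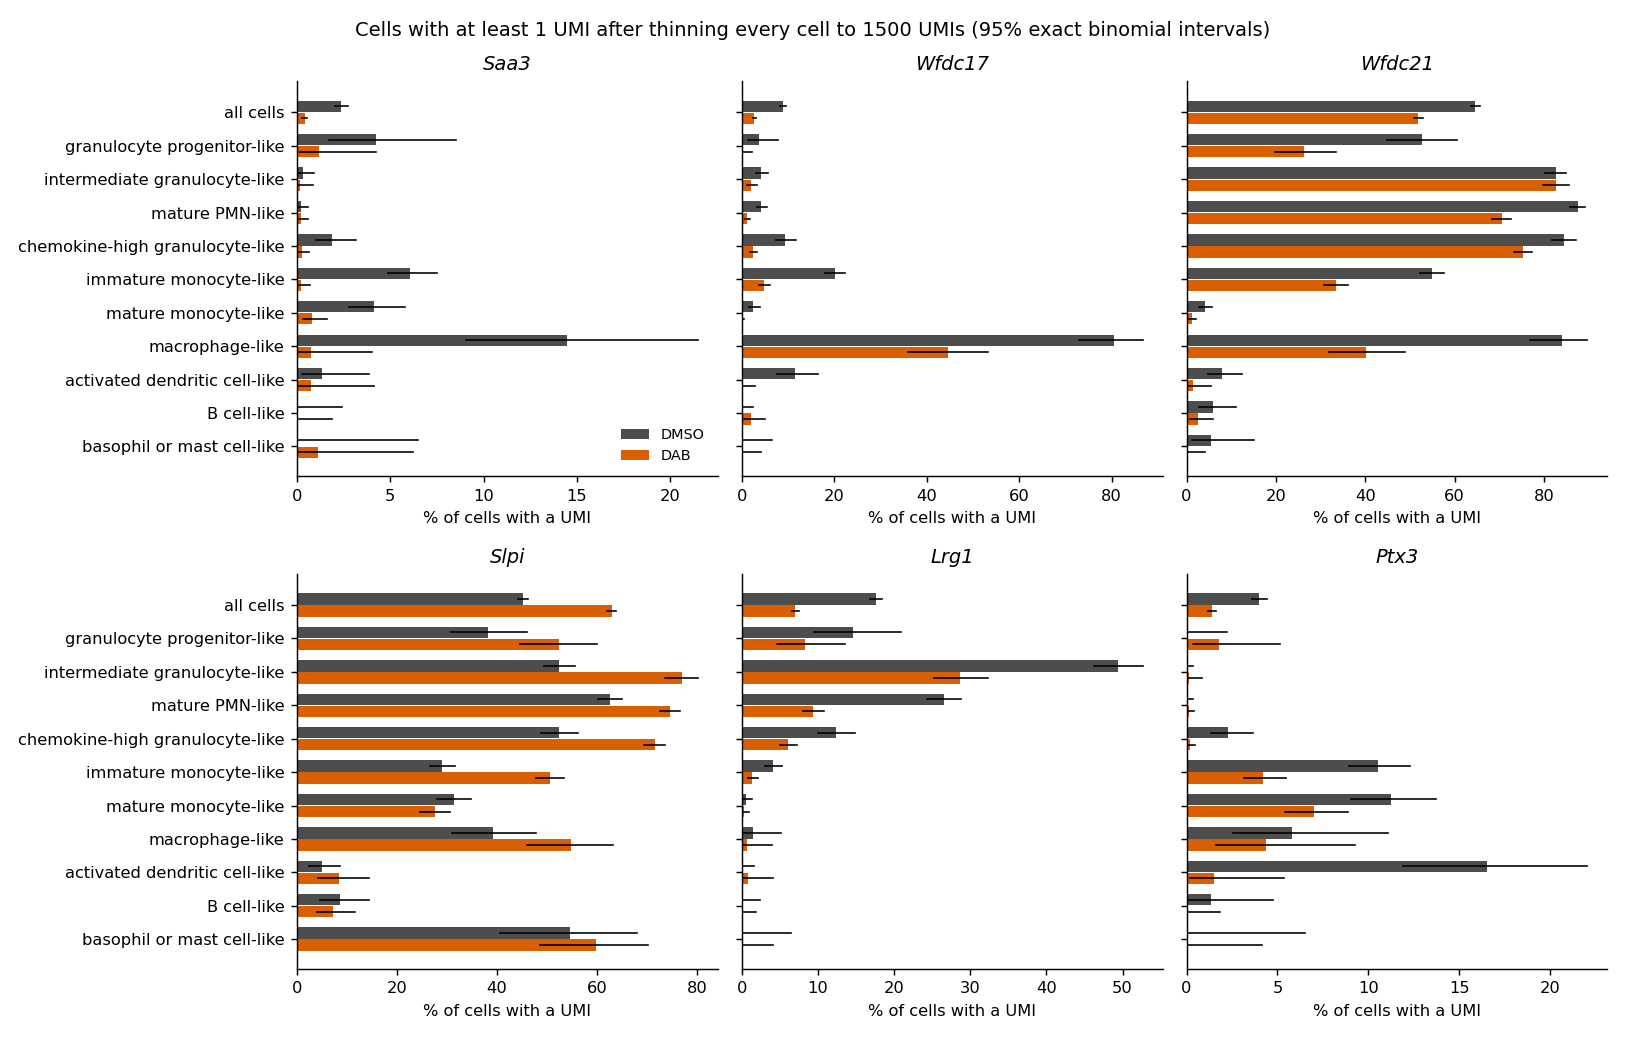
Percent of cells with at least 1 UMI of each gene after every cell was thinned to 1500 UMIs, by class, for DMSO (grey) and DAB (orange), with bars for exact binomial 95% intervals. Wfdc17 marked the macrophage-like cells (80.4% in DMSO and 44.5% in DAB) and Lrg1 the intermediate granulocyte-like cells (49.4% and 28.7%). The B cell-like cells are a rough guide to free RNA, and a poor one for Slpi and Wfdc17.

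Across the 22 clusters the direction was shared widely by Wfdc17, Lrg1 and Slpi and less so by the others. The clusters and classes split the same cells on which the genes were chosen, so these counts are a description and no independent support. The share of all genes past that size in each cluster is not given. Wfdc17 was called lower in 20 clusters and higher in 1 (P, the B cell-like cells), and Lrg1 was lower in 18 and higher in none. Slpi was higher in 18 clusters and lower in 1, again P. Wfdc21 was lower in 15 and Ptx3 in 12, with none higher. Saa3 was lower in 13 and higher in 2 unnamed clusters where it was scarce, L (32 UMIs in DMSO, 58 in DAB) and O (2 and 58 UMIs).

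**Figure D3:**
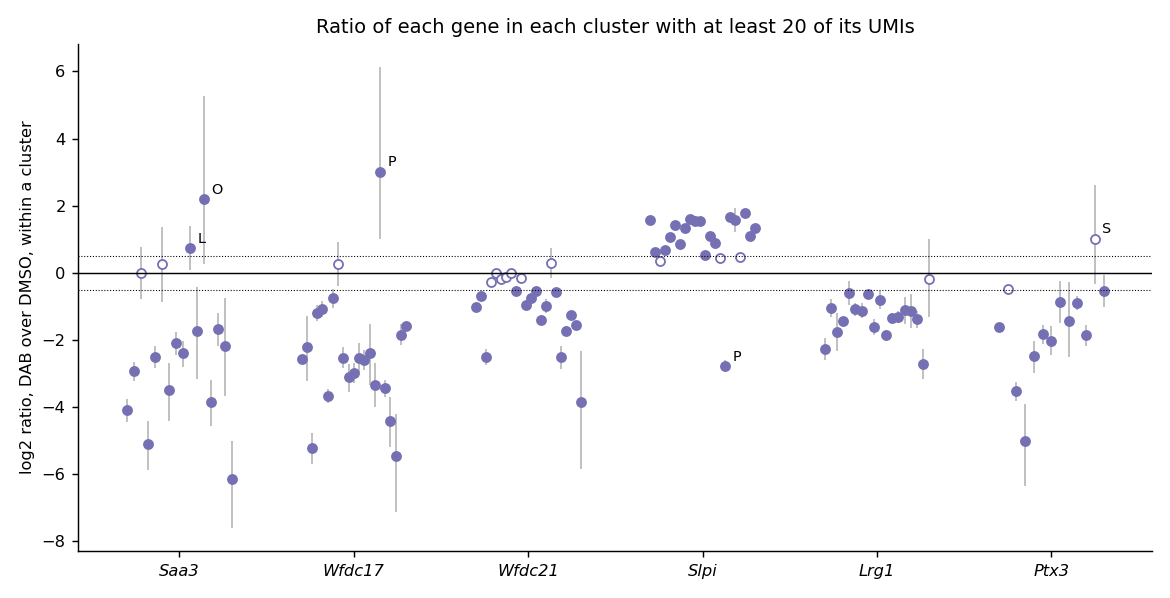
Log2 ratio of DAB over DMSO of each gene in every cluster with at least 20 of its UMIs over both libraries and at least 1 in each, with 95% counting intervals. Filled points are at least 0.5 in size with an interval that leaves out 0, dotted lines mark that size, letters name the points that lie against the other clusters, and Slpi alone has most points above 0.

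**Figure D4:**
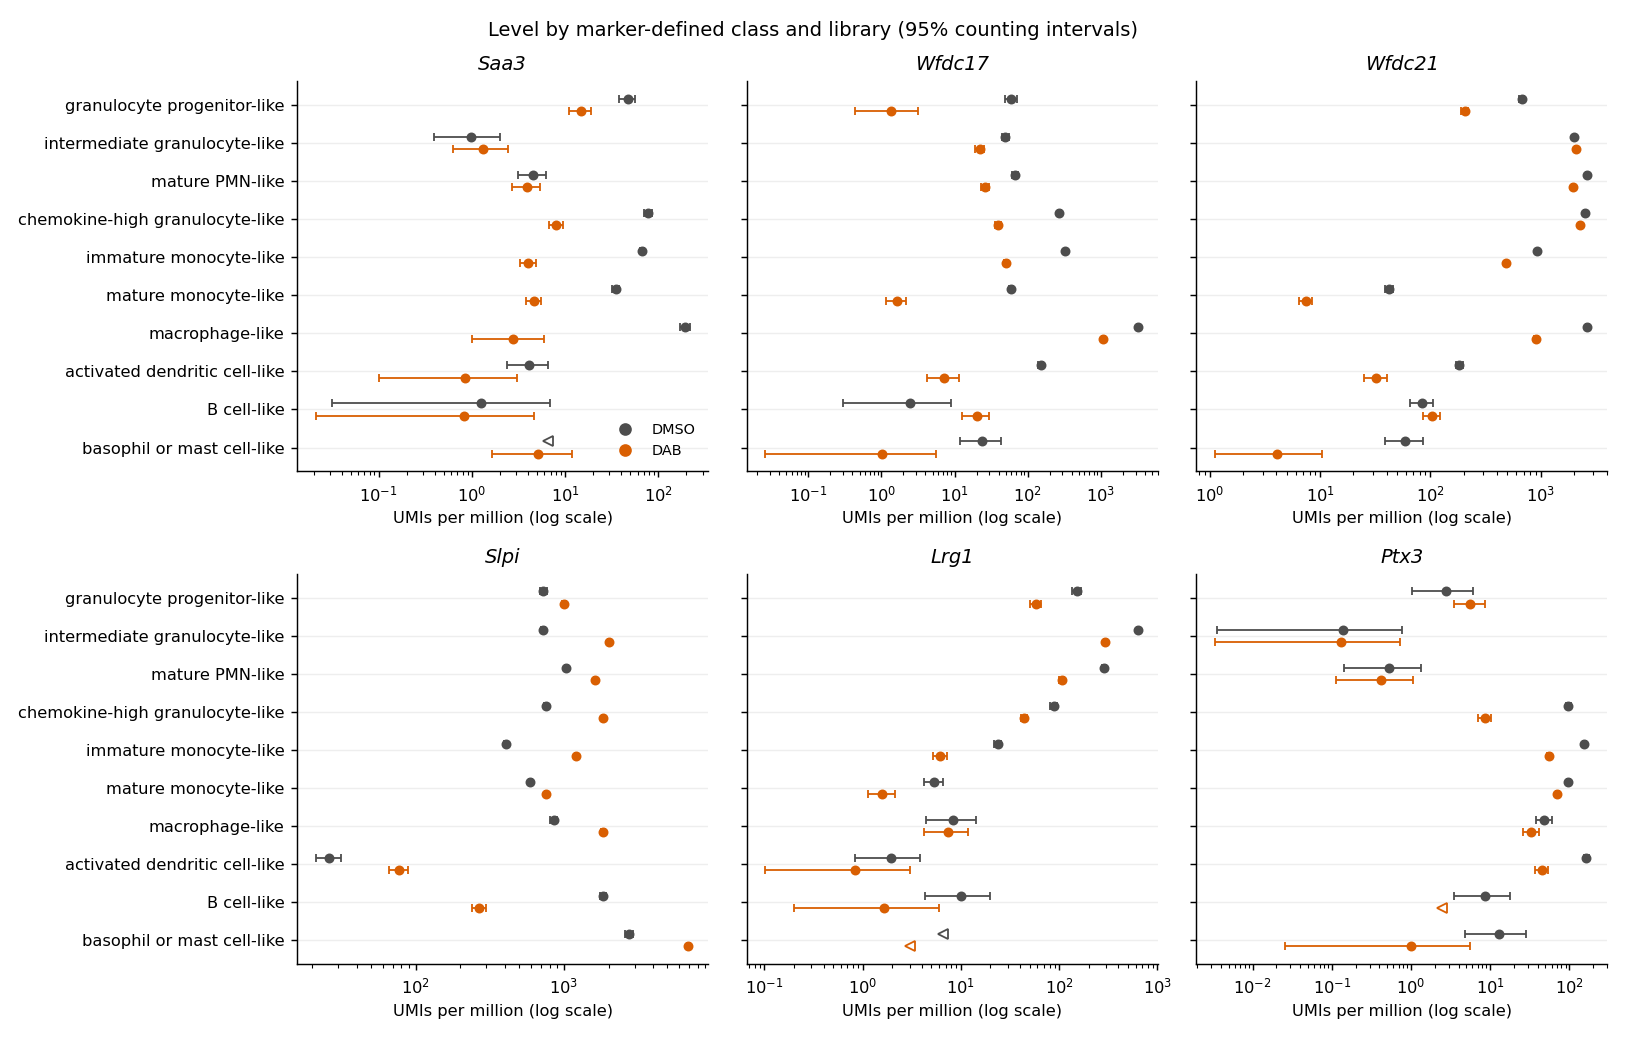
Level of each gene in CPM (log scale) in the 10 named classes of the DMSO (grey) and DAB (orange) libraries, with 95% counting intervals. Open triangles stand at the level that 3 UMIs would give where none was counted, and the DAB points lie left of the DMSO points in most classes for every gene but Slpi.

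Saa3 in DMSO was highest in macrophage-like cells and was counted in monocyte-like, chemokine-high granulocyte-like and granulocyte progenitor-like cells. Macrophage-like cells, whose leading genes included Pf4, Ppbp and the C1q genes, had 194 CPM (interval 173 to 217), chemokine-high granulocyte-like cells 77.8 CPM, immature monocyte-like cells 66.7 CPM, granulocyte progenitor-like cells 47.0 CPM and mature monocyte-like cells 35.1 CPM. In DAB the same classes held 2.74, 8.02, 4.04, 14.7 and 4.59 CPM, so that progenitor-like cells came first and the other classes lay between 0.833 and 8.02 CPM. The difference was largest in macrophage-like cells (305 to 6 UMIs, log2 ratio -6.15, interval -7.60 to -5.01) and immature monocyte-like cells (1453 to 99 UMIs, -4.05, -4.35 to -3.75). The mature polymorphonuclear (PMN)-like cells had 4.48 and 3.87 CPM (-0.21, -0.92 to 0.50) and the intermediate granulocyte-like cells 0.977 and 1.31 CPM (0.43, -1.11 to 2.06), so neither had a called difference, and under other clusterings the mature PMN-like ratio ran from -4.11 to 0.82. A handful of cells carried Saa3 in the chemokine-high class, where 3 of 784 DMSO cells held 75.9% of 465 UMIs and 3 of 1901 DAB cells held 81.8% of 121. Without those cells the ratio there was -3.69, against -3.28 with them. The 29 DMSO cells of that class with a Saa3 UMI summed to 9818 CPM of the 7 immature monocyte markers, all other cells to 5291 CPM, and their median depths were 16244 and 6112 UMIs. The part of these markers and of depth in the chemokine-high value was not tested, and other clusterings put that ratio between -5.32 and -0.68.

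Wfdc17 had its highest level in the macrophage-like class in both libraries. Macrophage-like cells had 3277 CPM in DMSO and 1091 CPM in DAB (-1.59, -1.66 to -1.52), and immature monocyte-like cells, the next class in both libraries, had 330 and 50.6 CPM (-2.70, -2.79 to -2.62). Chemokine-high granulocyte-like cells followed at 270 and 39.4 CPM. After thinning, 80.4% of DMSO and 44.5% of DAB macrophage-like cells held a UMI, as did 20.1% and 4.78% of immature monocyte-like cells. Without alignment of the libraries, which left 1658 DMSO and 82 DAB immature monocyte-like cells, the ratio there was 0.87 for Wfdc17 and 0.09 for Wfdc21. In mature monocyte-like cells, which express MHC class II genes, Wfdc17 went from 878 UMIs to 43 (59.6 to 1.61 CPM, -5.21), and in granulocyte progenitor-like cells from 128 UMIs to 5 (59.5 to 1.34 CPM, -5.47). In DMSO, 3 cells held 55.0% of the mature monocyte UMIs and 61.7% of the progenitor UMIs, and without the richest 3 cells of each library the ratios were -4.32 and -6.42. Activated dendritic cell-like cells, marked by Ccr7 and Fscn1, had 152 and 7.15 CPM. Mature PMN-like cells had 66.7 and 26.2 CPM (-1.35, and down to -3.35 in 1 alternative clustering) and intermediate granulocyte-like cells 49.7 and 22.1 CPM (-1.17). The macrophage markers moved in the same cells: their 7 genes summed to 1446 CPM in DMSO and 342 CPM in DAB within the macrophage-like class, with 5 of the 7 lower by at least 0.5 and none at 0. In DAB the 205 B cell-like cells without Wfdc17 summed to 501 CPM of these markers, so the macrophage-like name is less certain for the DAB cells. The class also held 10542 CPM in DMSO and 6303 CPM in DAB of the 7 immature monocyte markers. Its sums of the 5 chemokine-high markers were 13215 and 15090 CPM. The part of these marker differences in the Saa3, Wfdc17 and Wfdc21 differences of that class was not tested.

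Wfdc21 was abundant in the granulocyte-like classes beyond the progenitors, where its differences over each class stayed under the size of a call. It had 2638 and 1971 CPM in mature PMN-like cells (-0.42, -0.45 to -0.39), 2507 and 2270 CPM in chemokine-high granulocyte-like cells (-0.14) and 2028 and 2101 CPM in intermediate granulocyte-like cells (0.05), none of which was called, although the mature PMN-like ratio passed -0.5 in 5 of 9 alternatives (-0.72 to -0.31). Single clusters of these classes did differ: Wfdc21 was called lower in B, a mature PMN-like cluster (1968 to 1224 CPM, -0.68), and in M, an intermediate granulocyte-like cluster (3822 to 2628 CPM, -0.54). The other intermediate cluster, H, had 1542 and 1545 CPM and held 743 DMSO and 284 DAB cells, against 254 and 384 in M, so the value of that class also holds a changed mix. Among the other classes, macrophage-like cells went from 2654 to 904 CPM (-1.55, -1.63 to -1.48), immature monocyte-like cells from 931 to 490 CPM (-0.93), granulocyte progenitor-like cells from 675 to 204 CPM (-1.72), activated dendritic cell-like cells from 183 to 32.0 CPM and mature monocyte-like cells from 42.0 to 7.36 CPM (-2.51). In the dendritic and mature monocyte classes the thinned shares (8.04% and 1.52%, 4.10% and 1.24%) were near those of the B cell-like cells. In DMSO the macrophage-like and mature PMN-like classes shared first place within counting error, whereas in DAB chemokine-high granulocyte-like cells came first, followed by the intermediate and mature granulocyte classes and only then by macrophage-like cells. Over all cells Wfdc21 lost its call under 5 of 7 alternatives, with ratios from -0.55 to -0.32, and it was lowest in size (-0.32) when the macrophage-like, B cell-like, basophil or mast cell-like and unnamed cells were left out.

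Slpi was higher in DAB in 7 of 10 classes and lower in 1. Many of its UMIs lay outside these classes, in unnamed clusters. Of 62047 Slpi UMIs in DMSO and 238894 in DAB, K held 2675 (205 cells) and 33671 (534 cells). O held 2932 (80 cells) and 25273 (355 cells), and T 2175 (109 cells) and 22647 (236 cells). Slpi was called higher in K and T and not in O. Among the named classes, the largest ratios on many cells were in immature monocyte-like cells (405 to 1211 CPM, 1.58, 1.55 to 1.62) and intermediate granulocyte-like cells (722 to 2021 CPM, interval of the ratio 1.44 to 1.53). The intermediate class pools clusters H (743 DMSO and 284 DAB cells) and M (254 and 384). Slpi was called higher in both, with 3393 UMIs in DMSO and 5653 in DAB in H, and 1781 and 9729 in M. The class ratio thus also holds a changed mix, and the part of that mix in it was not tested. Marker sums of this class also differed between the libraries, as given with Lrg1 below. Chemokine-high granulocyte-like cells went from 752 to 1824 CPM (1.28), macrophage-like cells from 853 to 1842 CPM (1.11) and mature PMN-like cells from 1038 to 1632 CPM (0.65). Basophil or mast cell-like cells had the highest level in both libraries, 2749 CPM in DMSO and 6887 CPM in DAB (1.32, 1.24 to 1.41), on 56 and 90 cells. Activated dendritic cell-like cells had 25.8 and 77.0 CPM (1.58, 1.23 to 1.94), but their thinned shares of 4.91% and 8.33% were near the 8.67% and 7.11% of the B cell-like cells, and without the richest 3 cells of each library their ratio was 0.51. Granulocyte progenitor-like cells (728 and 1003 CPM, 0.46) and mature monocyte-like cells (593 and 760 CPM, 0.36) lay under the size of a call. The progenitor ratio passed 0.5 in 5 of 9 alternatives (up to 0.96), and both ratios fell below 0 in some alternatives, furthest when the libraries were not aligned (-0.42 and -1.93). The thinned share in mature monocyte-like cells was 31.3% in DMSO and 27.6% in DAB with overlapping intervals. B cell-like cells ran the other way at 1833 and 267 CPM (-2.78, -2.96 to -2.61). There, 3 of 167 DMSO cells held 93.2% of 1472 UMIs, 858 of them in 1 cell, and these 3 cells carried 16566 CPM of Jchain, a gene of antibody-secreting cells, against 187 CPM in the rest. Among B cell-like cells with under 20 Jchain UMIs, Slpi was at 115 CPM in DMSO and 157 CPM in DAB. The 3 DAB cells richest in Slpi held 73.4% of its UMIs and carried 22016 CPM of the neutrophil gene S100a8, against 999 CPM in the other DAB cells of the class.

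Lrg1 followed the granulocyte lineage. Intermediate granulocyte-like cells, marked by the granule genes Camp, Ltf and Ngp, had 634 CPM in DMSO and 295 CPM in DAB (-1.10, -1.18 to -1.03), and 49.4% and 28.7% of their thinned cells held a UMI. Mature PMN-like cells had 285 and 107 CPM (-1.42, -1.53 to -1.31), granulocyte progenitor-like cells 151 and 57.8 CPM (-1.38) and chemokine-high granulocyte-like cells 88.1 and 43.8 CPM (-1.01). The order of these 4 classes was the same in both libraries, with no overlap of neighbouring intervals. Immature monocyte-like cells had 23.7 and 6.08 CPM (-1.96), and the remaining classes were under 10 CPM in both libraries. The intermediate class was also a smaller share of the DAB library, with 997 DMSO and 668 DAB cells, and its cluster H, where Lrg1 was highest (707 and 451 CPM), held 743 DMSO and 284 DAB cells. When each cluster was given the same weight in both libraries, the Lrg1 ratio over all cells was -1.11 in place of -1.49. Within the intermediate class its own 10 markers summed to 68484 CPM in DMSO and 40784 CPM in DAB, with 6 lower and 2 higher. The 7 immature monocyte markers there summed to 274 and 2382 CPM, all higher, and the 5 chemokine-high markers to 6108 and 15838 CPM. The part of these marker differences in the Lrg1 and Slpi ratios of the class was not tested.

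Ptx3 was counted in dendritic, monocyte-like, macrophage-like and chemokine-high granulocyte-like cells and was at most 5.62 CPM in the progenitor, intermediate and mature granulocyte classes. Activated dendritic cell-like cells (164 CPM) and immature monocyte-like cells (156 CPM) led in DMSO with overlapping intervals, followed by chemokine-high granulocyte-like cells (97.7 CPM), mature monocyte-like cells (97.6 CPM) and macrophage-like cells (48.4 CPM). In DAB, mature monocyte-like cells led at 70.3 CPM, and their ratio of -0.47 (-0.57 to -0.37) was under the size of a call, which 4 of 9 alternatives passed (-1.46 to -0.33). Immature monocyte-like cells had 55.9 CPM (-1.48, -1.57 to -1.39) and activated dendritic cell-like cells 45.0 CPM (-1.87, -2.17 to -1.57). Without alignment of the libraries the immature monocyte ratio was -0.30. Intermediate granulocyte-like cells had 1 UMI in each library and mature PMN-like cells 4 in each. The chemokine-high class went to 8.55 CPM (-3.51, -3.80 to -3.24), and there 29 DMSO cells held all 584 UMIs and 3 of 1901 DAB cells held 94.6% of 129. Without the richest 3 cells of each library the ratio was -6.89 there and -3.64 in activated dendritic cell-like cells, where 3 of 133 DAB cells held 75.7% of 107 UMIs. Those 29 cells summed to 15945 CPM of the 7 immature monocyte markers against 4661 CPM in the other cells of the class, with median depths of 17774 and 6069 UMIs, and the part of these in the Ptx3 value was not tested. In macrophage-like cells Ptx3 had 76 and 73 UMIs (48.4 and 33.3 CPM, -0.54, -1.02 to -0.06), a sign that turned under 4 other ways of clustering.

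The genes fell into separate patterns over the 22 clusters. Described by Pearson's r of log2(CPM + 10), with clusters of 1 library that share its depth as points, Wfdc21 and Lrg1 were alike in both libraries (0.73 in DMSO and 0.73 in DAB). Saa3 and Wfdc17 were alike in DMSO (0.71) and not in DAB (-0.22), and so were Saa3 and Ptx3 (0.66 and 0.00). In DAB, every named class but progenitor-like cells (14.7 CPM) had Saa3 at 0.833 to 8.02 CPM, under the 10 added. The DAB values of r for Saa3 thus rest on little spread and do not show that a shared pattern was lost. Lrg1 and Ptx3 ran against each other in both (-0.51 and -0.47), as did Slpi and Ptx3 (-0.54 and -0.36). Within the immature monocyte-like cells of DMSO, thinned to equal depth, Wfdc17 was found in 32.9% of the 82 cells with Saa3 (interval 22.9% to 44.2%) and 19.2% of the 1268 without (17.1% to 21.5%). Wfdc21 was found in 74.9% of cells with Wfdc17 and 50.0% of cells without, whereas Ptx3 was found in 9.76% of cells with Saa3 and 10.6% of cells without. The intervals were apart for both Wfdc17 with Saa3 and Wfdc21 with Wfdc17, and overlapped for Ptx3 with Saa3.

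Over the 44 points of 22 clusters in both libraries, genes whose pattern was among the 3 most like each gene, by the same r, were as follows. For Saa3 they were Mmp19 (0.76), Lrpap1 (0.71) and Fkbp1b (0.70), and for Wfdc17 Cd302 (0.81) and Fblim1 (0.76). Wfdc21 was closest to Bst1 (0.94), the neutrophil collagenase Mmp8 (0.91) and Aldh3b1 (0.89), and Lrg1 to the chitinase-like gene Chil3 (0.91) and Sept5 (0.90). Ptx3 was closest to Dcstamp (0.87), a fusion gene of dendritic cells and osteoclasts, Rai14 (0.84) and Olfm1 (0.83). Slpi had the loosest neighbours, Ly6e (0.70), Myo1d (0.69) and Rgs18 (0.68). Mmp8 was itself at 580 CPM in DMSO and 596 CPM in DAB (0.04).

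Genes beside the 6 on the chromosome had ratios on both sides of 0. The liver serum amyloid genes Saa1 and Saa2 had no UMI in either library and Saa4 had 0 and 3 UMIs, although reads that Saa1 and Saa2, near-identical to each other, share are not counted. Saal1, 1.32 kb from Saa3, had a ratio of -0.34 (12.6 and 9.90 CPM). The chemokine genes that share the Wfdc17 and Wfdc21 region lay on the other side of 0, Ccl3 at 0.32, Ccl4 at 0.83, Ccl6 at 0.50 and Ccl9 at 0.15. Wfdc18, 2.75 kb from Wfdc17, had 23 UMIs in DMSO and 4 in DAB. Heatr6, 1.05 kb from Wfdc21, had a ratio of -0.49 (41.3 and 29.5 CPM), and Sema6b, 1.1 kb from Lrg1, one of -0.54. Plin5, 2.08 kb from Lrg1, had 138 and 40 UMIs (-2.39), and Veph1, which overlaps Ptx3, had 57 and 19. Sdc4, 35.15 kb from the end of the Slpi gene span, and further from the RefSeq start, was lower in DAB (-0.72) while Slpi was higher.

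Related genes were read from 6 lists. Each was counted by ratios of at least 0.5 in size among genes with at least 20 UMIs over both libraries. The median ratio of all 16396 such genes was -0.02, with 19.2% of them lower and 16.2% higher by that size. All list ratios are over all kept cells, and the part of the changed cell mix in them was not tested. Over the clusters Chil3 was close to Lrg1 (r of 0.91), which was highest in intermediate granulocyte-like cells. That class held 997 DMSO and 668 DAB cells. Chil3 and Lcn2 are also among the markers that named it. C1qa, C1qb and C1qc are also among the macrophage markers, and Elane, Prtn3 and Ctsg among the granulocyte progenitor markers. Of 13 measured genes among 24 other acute phase genes, 8 were lower, 0 higher, and the median was -1.06. They were haptoglobin Hp (185 and 38.2 CPM, -2.28), complement C3 (378 and 218 CPM, -0.80) and factor B Cfb (277 and 41 UMIs, -3.36), the metallothioneins Mt1 (-1.06) and Mt2 (-1.43), Chil3 (3968 and 1493 CPM, -1.41), Hamp (-1.81) and Orm1 (19 and 8 UMIs). Lipocalin Lcn2, a neutrophil granule protein of the acute phase, had 1957 and 1580 CPM (-0.31). Other WAP genes were almost silent: 3 of 21 reached 20 UMIs, 2 were past the size, and of these Wfdc3 had 15 UMIs in each library and an interval that spans 0. Of 9 measured soluble pattern recognition genes 6 were lower and 0 higher (median -2.05), among them C1qa (852 and 26 UMIs, -5.64), C1qc (-3.51), C1qb (-2.61) and the ficolin Fcnb (2009 and 836 UMIs, -1.87), whereas properdin Cfp had 556 and 729 CPM (0.39).

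The signalling list moved little. Of 17 genes of the IL-6, STAT3, C/EBP and NF-kB pathways, 3 were lower and 1 higher, with a median of -0.17. Il6st, the signalling chain gp130 of the IL-6 receptor, was at 26.5 and 6.42 CPM (-2.05), Socs3, a STAT3 target that restrains the pathway, at 70.2 and 41.1 CPM (-0.77), Stat3 at 97.4 and 68.7 CPM (-0.50) and Cebpe, a factor of late granulocyte maturation, at 45.9 and 76.8 CPM (0.74). Cebpb had 1146 and 916 CPM (-0.32). Among 15 receptor genes 7 were lower, against 19.2% of all genes at that floor, and 0 higher (median -0.28), including the serum amyloid A receptors Cd36 (16.4 and 1.24 CPM, -3.72), Scarb1 (80.4 and 38.0 CPM, -1.08), Fpr2 (-0.71) and Tlr2 (-0.51), and Eng (-0.58) and Acvrl1 (-1.54), which take part in LRG1 signalling. Of 15 measured proteases and protease inhibitors 7 were higher and 3 lower (median 0.50). The SLPI targets Elane (96.4 and 56.3 CPM, -0.78) and Ctsg (23.4 and 44.7 CPM, 0.93) differed in opposite directions, and Prtn3 was at -0.80. The higher inhibitors were Serpinb2 (84.9 and 220 CPM, 1.37) and Serpinb9 (1.25) and the stefins Stfa1 (54.2 and 293 CPM, 2.44), Stfa2 (113 and 630 CPM, 2.48) and Stfa2l1 (1.03), which block cysteine and not serine proteases. Counts of single stefin genes are uncertain because near-identical copies share reads. Tpsb2 had 1 and 40 UMIs, and the metalloproteinase inhibitor Timp1 was at 44.6 and 4.15 CPM (-3.43).

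**Figure D5:**
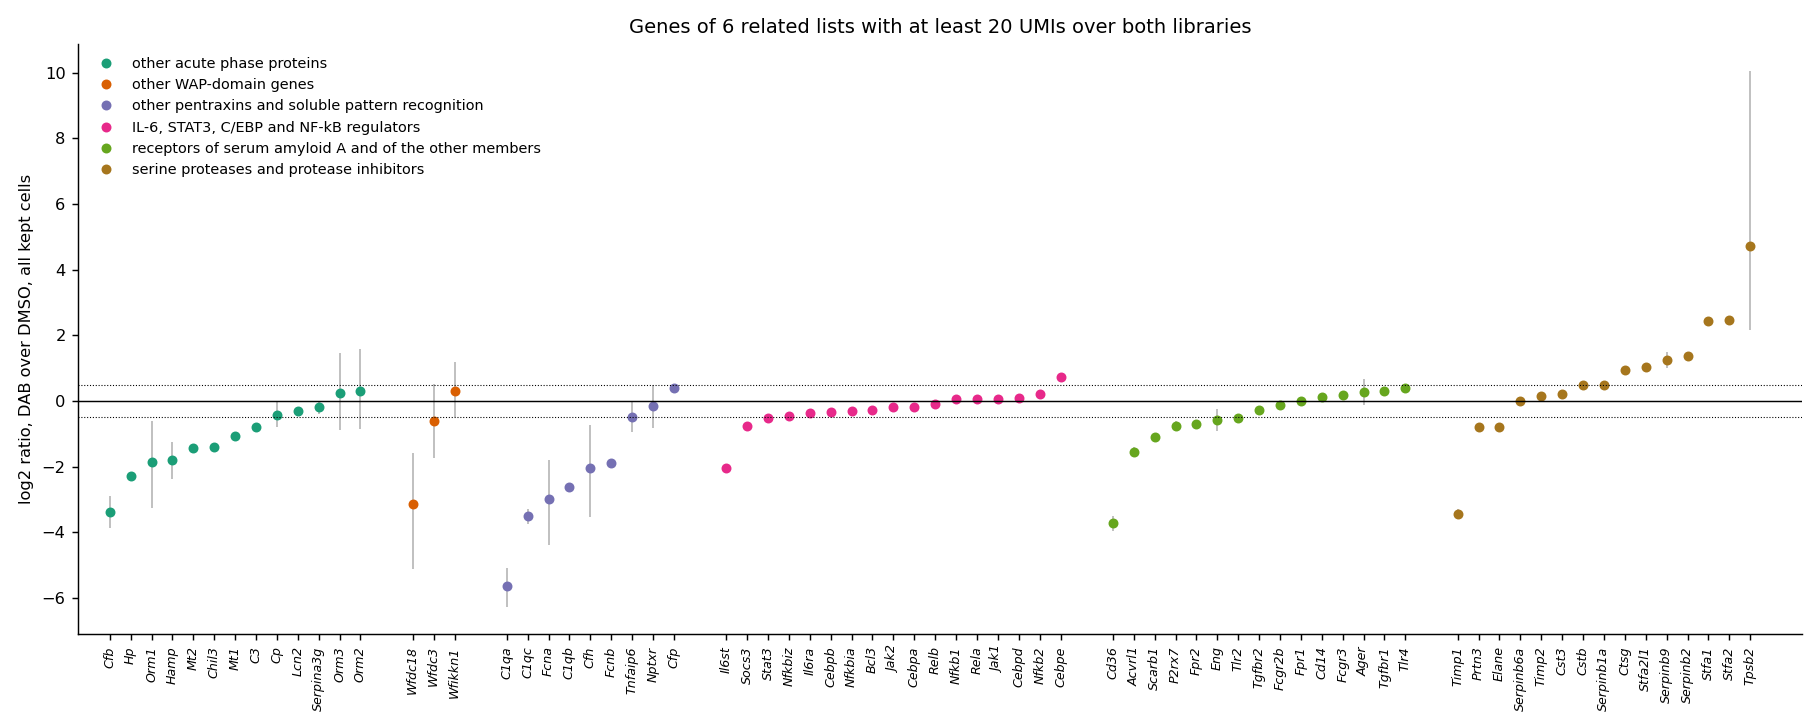
Log2 ratio of DAB over DMSO over all kept cells for each gene of the 6 lists with at least 20 UMIs over both libraries and at least 1 in each, in order of the ratio within a list, with 95% counting intervals in grey and dotted lines at the size of a call. The acute phase list runs from Cfb at -3.36 with 8 genes below the lower line, and the protease and inhibitor list ends with Stfa1 and Stfa2 near 2.4 and Tpsb2 on 41 UMIs.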

How the data were processed

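Single-cell 5′ RNA libraries (10x Genomics, v2 kit) of DMSO- and DAB-cultured MDSC were analysed. The authors deposited raw UMI counts per gene and barcode, made with Cell Ranger 7.0.0 on mm10. The submitters' processing notes also name Seurat 4.3.0 and R 4.1.2. Cell Ranger leaves out reads that map to several genes. From the 9855 DMSO and 11631 DAB barcodes, cells with over 10% mitochondrial UMIs (55 and 89) and those beyond 4 median absolute deviations (0 and 0) were left out, and 768 and 1066 doublets were removed by similarity to simulated doublets at 0.8% per 1000 barcodes. Variable genes (3000, without the 6 genes) were normalized, cell cycle and mitochondrial scores were regressed out, 40 components were aligned by mutual nearest neighbours, and Leiden clustering was run at resolution 0.9 (Python 3.11.15, scikit-learn 1.9.0, leidenalg 0.10.2). A cluster was named when at least 3 markers of a class were raised at least 2-fold (log2 of 1) and more of its 10 leading genes marked that class than any other, a rule set after the clusters were seen. Doublets that this step missed may remain in rare classes. The chemokine-high granulocyte-like class was named from 5 chemokine genes, and its lineage is less certain. In DMSO these genes summed to 17053 CPM there and 13215 CPM in macrophage-like cells. The class held 5648 CPM of the 7 immature monocyte markers and 2452 CPM of the 8 mature PMN markers in DMSO.

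With 1 library per condition nothing was tested. Ratios of summed UMIs carry exact conditional binomial intervals, levels exact Poisson intervals and shares exact binomial (Clopper-Pearson) intervals, all at 95%. The ratio code was checked on simulated counts. The 6 genes and the lists were chosen with earlier results of these data known. The text names the 6 genes, the 3 genes of at least 20 CPM closest to each (some of these are not reported here), list genes and class markers. Cells rich in a gene, Jchain, S100a8 and neighbouring genes were added after their values were seen. Alternatives were another scaling, cell weighting, filter, doublet treatment, cell mix, clustering and thinning depth (3000 UMIs).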

Additional observations from a re-analysis of the deposited data

Results flagged for a closer look

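A pair of genes ran in opposite directions between cell classes. Wfdc17 was higher in DAB in B cell-like cells (2 UMIs in 167 DMSO cells and 24 UMIs in 216 DAB cells, log2 ratio 3.01, counting interval 0.996 to 6.13) and lower in the other 9 named classes. Slpi was lower in DAB in B cell-like cells (log2 ratio -2.78), higher in 7 classes and under the size of a call in 2. Both differences between classes rest on 1 library per condition and were not tested. In DAB, 3 cells held 54.2% of the B cell-like Wfdc17 UMIs. The 11 DAB cells with Wfdc17 summed to 5364 CPM of chemokine-high granulocyte markers and 479 CPM of mature PMN markers. The 205 without it had 1106 and 189 CPM. Mature monocyte markers were also higher (21695 against 17018 CPM), and immature monocyte (258 against 422 CPM) and macrophage markers (406 against 501 CPM) were lower. The part of such RNA in the Wfdc17 value was not tested. Without the 3 cells of each library richest in Slpi, its ratio in B cell-like cells was -0.86, from 134 to 73.9 CPM.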

How the results depend on the processing

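No paired analysis was possible because each condition was 1 library, and for the same reason no replicate could be left out. Over all cells none of 42 alternative ratios changed sign, and 25 moved by more than their counting interval. Without the 1% of cells richest in each gene, ratios were -3.29 for Saa3, -3.23 for Wfdc17, -0.55 for Wfdc21, 1.36 for Slpi, -1.63 for Lrg1 and -2.03 for Ptx3. With clusters weighted alike in both libraries they were -2.12 for Wfdc17, -0.43 for Wfdc21, 1.01 for Slpi, -1.11 for Lrg1 and -1.66 for Ptx3. As means over cells they were -1.69 for Wfdc17, -0.44 for Wfdc21 and 1.22 for Slpi. Scaling by the median of ratios, which shifted all genes by 0.03, gave -0.49 for Wfdc21 and 1.36 for Slpi, keeping doublets gave -0.49 and 1.31, and no cell filter gave 1.32 for Slpi. Without macrophage-like, B cell-like, basophil or mast cell-like and unnamed cells, a setting added after seeing the data, they were -3.03 for Saa3, -2.78 for Wfdc17, -0.32 for Wfdc21, 1.12 for Slpi, -1.41 for Lrg1 and -1.29 for Ptx3.

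Within classes, 8 of 502 alternative ratios reversed a called direction, and uncalled ratios turned sign too, such as Slpi in mature monocyte-like cells (0.36 to -1.93 without alignment). Ptx3 in macrophage-like cells turned to 0.25 and 0.50 at clustering resolutions 0.5 and 1.5, 0.46 without alignment and 0.48 without cell cycle regression. Without alignment, which left 1658 DMSO and 82 DAB immature monocyte-like cells, Wfdc17 there was 0.87 and Wfdc21 0.094. Wfdc21 in activated dendritic cell-like cells was 1.06 without cell cycle regression, and Saa3 there, on 19 UMIs, was 0.48 as a mean over cells. The cause was not tested. With a floor of 200 UMIs, 1624 (13.4%) of 12128 genes were higher and 1758 (14.5%) lower. With 20 CPM these were 686 (11.6%) and 664 (11.2%) of 5908 genes. With at least 20 CPM required of list genes, the lower counts were 5 of 6 acute phase, 0 of 0 WAP, 2 of 3 pattern recognition and 3 of 9 receptor genes. Of all genes at that floor, 11.2% were lower. Rare cells limit the values of Saa3, Wfdc17 and Ptx3 in small classes, where a few cells hold most UMIs.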
